A study of Mus musculus with 6 samples.

Results

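Transcripts of B cells and of immunoglobulins were examined in mouse muscle as a set of 9 genes out of the 53084 rows of the count table. The set was chosen by name. It holds the heavy chain constant genes *Ighm* and *Ighd*, the kappa light chain constant gene *Igkc*, the joining chain gene *Jchain*, the receptor signalling chains *Cd79a* and *Cd79b*, the B cell surface gene *Ms4a1*, the gene *Vpreb3*, and the transcription factor gene *Pax5*. RNA was sequenced from muscle of 3 Tarsl2+/+ mice, numbered 583, 584 and 595, and of 3 Tarsl2-/- mice, numbered 588, 589 and 591, with 1 library per mouse. All 6 mice were C57BL/6 males, 6 weeks old, on standard chow in a pathogen-free facility. The Tarsl2-/- mice descend from C57BL/6J zygotes in which exon 3 of *Tarsl2*, the gene of a threonyl-tRNA synthetase-like protein, was deleted with CRISPR/Cas9, so that the deletion is present in all cells and not in B cells alone. The title of mouse 589 carries an additional letter that the labels do not explain. Neither the labels nor the methods describe perfusion of the tissue or removal of lymph nodes.

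B cells carry a receptor made of membrane immunoglobulin and of the signalling pair Cd79a and Cd79b. A naive B cell makes its heavy chain from *Ighm* and, by alternative splicing of the same long transcript, from *Ighd*, and pairs it with a kappa or a lambda light chain. After activation, B cells may switch to other heavy chains or become plasma cells, which secrete antibody and need the joining chain to build its polymers. Few B cells reside in healthy skeletal muscle, and blood and lymph nodes in or beside a muscle also hold them.

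The *Ighm* and *Ighd* rows lie next to each other on chromosome 12 of GRCm38 (minus strand), *Ighm* from 113418558 to 113422730 and *Ighd* from 113406604 to 113416324, with 2233 bases between them. Reads were counted over the whole *Ighm* row. Its annotation holds a transcript of 4 exons, which ends in the secreted tail, and one of 6 exons, which adds the membrane anchor, so that the secreted and the membrane form were not separated. *Igkc* lies on the plus strand of chromosome 6, from 70726435 to 70726966, and its row covers the constant part of the chain without the variable part. The other members lie on chromosomes 4 (*Pax5*), 5 (*Jchain*), 7 (*Cd79a*), 10 (*Vpreb3*), 11 (*Cd79b*) and 19 (*Ms4a1*).

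Upstream sequence from RefSeq on GRCm38.p6 was matched for 4 of the 9 members, *Jchain*, *Cd79a*, *Vpreb3* and *Pax5*. The 250 bases before each start were searched on both strands for 3 motifs of B cell transcription factors, which do not overlap in the sequences shown. These were the octamer ATGCAAAT, bound by Oct factors, the letters GAGGAA, a core bound by PU.1, and TCCCNNGGGA, a palindrome bound by Ebf1. A match was found in *Cd79a* and in *Vpreb3*. Of these windows, the part outside annotated exons, which for *Cd79a* leaves out the bases nearest the start, is shown 5′ to 3′ on the plus strand, on which both genes lie, with the match in capitals. The *Vpreb3* window lies before the RefSeq start but inside the longer *Vpreb3* row of the count table, which spans 75943057 to 75949657.
*Cd79a*, chr7:24897247-24897380, bases -250 to -117 from the start: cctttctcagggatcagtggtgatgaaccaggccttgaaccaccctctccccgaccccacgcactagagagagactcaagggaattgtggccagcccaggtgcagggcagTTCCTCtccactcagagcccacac
*Vpreb3*, chr10:75948050-75948299, bases -250 to -1: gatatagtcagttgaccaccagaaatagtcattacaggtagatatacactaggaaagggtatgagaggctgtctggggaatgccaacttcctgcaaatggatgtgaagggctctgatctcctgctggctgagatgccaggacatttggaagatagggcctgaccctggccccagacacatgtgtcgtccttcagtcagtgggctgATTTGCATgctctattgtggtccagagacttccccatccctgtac
The capitals in *Cd79a* are the PU.1 core read on the minus strand, from base -140, and those in *Vpreb3* the octamer read on the minus strand, from base -45. The octamer occurred in 1.60% of 32851 upstream windows of 250 bases, the PU.1 core in 23.3% and the Ebf1 palindrome in 0.779%. The *Jchain* and *Pax5* windows held none of the 3, and no window of the 4 held the palindrome.

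Between 16176591 and 20123767 reads per library were counted on genes. In CPM, counts scaled to a library of 1e+06 reads after TMM correction for library composition, 3 counts amount to 0.146 to 0.187. The targeted gene *Tarsl2* had 456 to 605 counts in Tarsl2+/+ and 30 to 40 counts in Tarsl2-/- libraries. Skeletal muscle markers summed to between 49036.9 and 62759.6 CPM, whereas no retinal marker gene had more than 7 counts, although the labels also mention a retinal extraction. The library of Tarsl2+/+ mouse 583 stood apart in genes of lymphoid cells and neutrophils. It was the highest library for 8 of the 9 members. Of the 4 members with enough counts to be tested, all but *Ighm* were highest there, against 15.1% of all 15075 tested genes. Results for the members are therefore given with and without this mouse.

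Of the 9 genes, *Ighm* alone passed the test between genotypes, and it was lower in Tarsl2-/- muscle. *Ighm* had 84.8, 91.6 and 98.5 CPM in Tarsl2+/+ mice 583, 584 and 595, and 50.7, 37.4 and 52.3 CPM in Tarsl2-/- mice 588, 589 and 591. Every Tarsl2-/- mouse was below every Tarsl2+/+ mouse, and within each genotype the values were close to each other. The means were 91.6 ± 6.88 and 46.8 ± 8.22 CPM (SD, n = 3 each), a ratio of 1.96 between Tarsl2+/+ and Tarsl2-/- muscle. On the log2 scale Tarsl2-/- differed from Tarsl2+/+ muscle by -0.97 with a standard error of 0.12 (Benjamini-Hochberg adjusted p = 0.00346 over all tested genes, edgeR's quasi-likelihood test). With single values, the exact two-sided permutation test gave p = 0.1, which is the lowest possible with 3 mice in each group. Mouse 583 did not carry this difference. Without it the log2 fold change was -1.03 (standard error 0.14, adjusted p = 0.0134 by the same edgeR test), and without mouse 589, the lowest, it was -0.83. In bulk tissue, fewer cells of a type and less RNA per cell cannot be told apart.

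Enough counts for the test were present for 4 members, *Ighm*, *Ighd*, *Igkc* and *Cd79b*, of which 1 was called lower and 0 higher in Tarsl2-/- muscle. Over all tested genes 1.37% were called lower, and the median log2 fold change was 0.00253. A gene could pass this minimum through the Tarsl2+/+ libraries alone. The mean over Tarsl2-/- mice was below that over Tarsl2+/+ mice in 9 of 9 members, but the genotypes did not overlap in 2, *Ighm* and *Ighd*. Among all tested genes, 12.0% had every Tarsl2-/- library below every Tarsl2+/+ library.

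**Figure D1:**
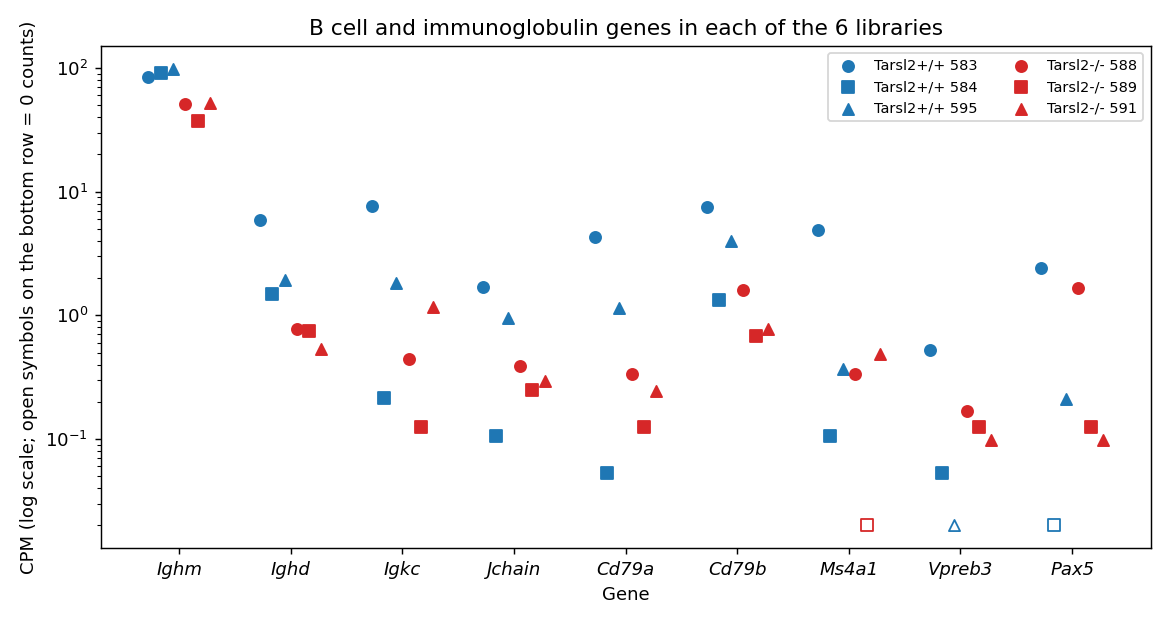
Level of each of the 9 genes in CPM on a log scale, with 1 symbol per mouse, Tarsl2+/+ in blue and Tarsl2-/- in red. Open symbols on the bottom row mark libraries with 0 counts. The *Ighm* symbols separate by genotype at 37.4 to 98.5 CPM, while mouse 583 (blue circle) is the highest symbol for the other 8 genes.

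*Ighd* encodes the heavy chain of IgD, which naive B cells carry beside IgM. It had 101, 28 and 37 counts in Tarsl2+/+ mice 583, 584 and 595, and 14, 12 and 11 counts in Tarsl2-/- mice 588, 589 and 591. This was 5.90, 1.49 and 1.94 CPM against 0.780, 0.748 and 0.535 CPM. The genotypes did not overlap, mouse 583 lay well above the other Tarsl2+/+ mice, and the Tarsl2-/- mice were close together. The means of *Ighd* were 3.11 ± 2.43 and 0.688 ± 0.134 CPM (SD, n = 3). Its difference of -2.17 on the log2 scale (standard error 0.52, adjusted p = 0.0556 by edgeR's quasi-likelihood test) missed the threshold of 0.05, and the exact permutation p was 0.1. Without mouse 583 it was -1.33 (standard error 0.36, adjusted p = 0.143 by edgeR).

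*Igkc* encodes the constant part of the kappa chain, the main light chain of mouse antibodies. It had 132, 4 and 35 counts in Tarsl2+/+ mice 583, 584 and 595, and 8, 2 and 24 counts in Tarsl2-/- mice 588, 589 and 591. The genotypes overlapped, since mouse 584 had fewer counts than mice 588 and 591. In CPM the Tarsl2+/+ libraries spanned 0.213 to 7.72, so that the highest was 36.3 times the lowest. The exact Poisson 95% intervals of the counts, 110 to 157 in mouse 583 and 1.09 to 10.2 in mouse 584, lay far apart. The log2 fold change of *Igkc* was -2.39 (standard error 0.94, adjusted p = 0.188 by edgeR's quasi-likelihood test, exact permutation p = 0.3). Without mouse 583 it was -0.76 (standard error 0.83, adjusted p = 0.720 by edgeR), smaller than its standard error.

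*Jchain* encodes the chain that joins IgM and IgA into polymers and is high in plasma cells. It had 29, 2 and 18 counts in Tarsl2+/+ mice 583, 584 and 595, and 7, 4 and 6 counts in Tarsl2-/- mice 588, 589 and 591. Mouse 584 was the lowest of all 6, and the gene had too few counts for the test. The means were 0.916 ± 0.795 and 0.310 ± 0.0722 CPM (SD, n = 3), with an exact permutation p of 0.4.

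The signalling chains of the receptor, *Cd79a* and *Cd79b*, are made throughout the B lineage up to the plasma cell. *Cd79b* had 7.48, 1.33 and 3.99 CPM in Tarsl2+/+ mice 583, 584 and 595, and 1.62, 0.686 and 0.778 CPM in Tarsl2-/- mice 588, 589 and 591. The genotypes overlapped in 1 pair of mice, as mouse 588 was above mouse 584. Its log2 fold change was -2.04 (standard error 0.54, adjusted p = 0.0746 by edgeR's quasi-likelihood test, exact permutation p = 0.2), and -1.37 (standard error 0.50, adjusted p = 0.252 by edgeR) without mouse 583. *Cd79a* had 73, 1 and 22 counts in Tarsl2+/+ and 6, 2 and 5 counts in Tarsl2-/- muscle, in the same order of mice. A single count in mouse 584 has an exact Poisson 95% interval of 0.0253 to 5.57 counts, against 57.2 to 91.8 for the 73 counts of mouse 583. *Cd79a* was too low for the test (exact permutation p = 0.4), with means of 1.83 ± 2.19 and 0.234 ± 0.105 CPM (SD, n = 3).

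**Figure D2:**
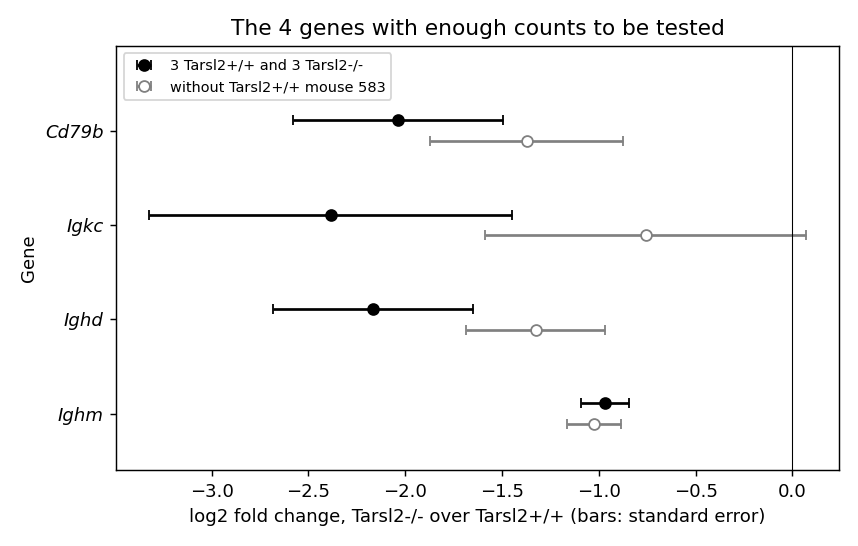
The log2 fold change, Tarsl2-/- over Tarsl2+/+, of the 4 tested genes, with bars of 1 standard error from edgeR. Filled symbols use all 6 mice and open symbols leave out Tarsl2+/+ mouse 583. *Ighm* stays at -0.97 and -1.03 with narrow bars, while *Igkc* moves from -2.39 to -0.76.

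*Ms4a1* encodes CD20, a surface protein of mature B cells. It had 84, 2 and 7 counts in Tarsl2+/+ mice 583, 584 and 595, and 6, 0 and 10 counts in Tarsl2-/- mice 588, 589 and 591. The count of 0 in mouse 589 allows up to 3 counts, or 0.187 CPM. Apart from mouse 583, the genotypes overlapped, with 0.106 and 0.367 CPM in Tarsl2+/+ mice 584 and 595 against 0 to 0.486 CPM in Tarsl2-/- mice. The exact permutation p over all 6 mice was 0.6.

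*Pax5* encodes the factor that sets and keeps B cell identity. It had 41, 0 and 4 counts in Tarsl2+/+ mice 583, 584 and 595, and 30, 2 and 2 counts in Tarsl2-/- mice 588, 589 and 591. Here 2 libraries were high, 1 of each genotype, and mouse 588 was high in *Pax5* with 6 counts of *Cd79a*. Exons of *Pax5*, alone among the members, overlap exons of other annotated genes, *5730488B01Rik* and *Gm12462*. The strand setting of the counting is not given, and whether all counts on this row are of *Pax5* was not tested. The exact permutation p was 0.8. *Vpreb3*, a gene of precursor and immature B cells, had 9, 1 and 0 counts in Tarsl2+/+ mice and 3, 2 and 2 counts in Tarsl2-/- mice, at or near the level of 3 counts in all but mouse 583 (exact permutation p = 1).

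Leaving out mouse 583 moved the ratio of mean CPM, Tarsl2+/+ over Tarsl2-/-, in all members, and turned the direction of 3. The ratio went from 6.56 to 0.866 for *Ms4a1*, from 1.49 to 0.205 for *Vpreb3* and from 1.38 to 0.166 for *Pax5*. Without mouse 583 the ratio of Tarsl2+/+ over Tarsl2-/- stayed above 1 at 2.49 for *Ighd*, 2.58 for *Cd79a*, 2.59 for *Cd79b*, 1.77 for *Igkc*, 1.69 for *Jchain* and 2.03 for *Ighm*. Of the 4 tested members, 1 was called lower without mouse 583, against 0.324% of all tested genes.

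Per length of gene, *Ighm* was far above the other members. In Tarsl2+/+ muscle the mean level in RPKM, CPM divided by the length of the gene in kilobases, was 48.6 for *Ighm*, 6.12 for *Igkc*, 2.98 for *Cd79b*, 1.64 for *Ighd*, 1.25 for *Cd79a*, 0.364 for *Jchain*, 0.290 for *Ms4a1*, 0.225 for *Vpreb3* and 0.0982 for *Pax5*. The lowest Tarsl2+/+ level of *Ighm* was 44.9 RPKM, and the highest level of any other member was 14.5 RPKM, of *Igkc* in mouse 583. *Ighm* was therefore the first in this order in every Tarsl2+/+ mouse. The other neighbours in the order overlapped in their ranges over these mice.

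*Ighm* and *Igkc* did not keep a fixed ratio. The counts of *Ighm* per count of *Igkc* were 11.0, 431 and 53.6 in Tarsl2+/+ mice 583, 584 and 595, and 114, 299.5 and 44.9 in Tarsl2-/- mice 588, 589 and 591. These counts are not scaled to gene length, which is 1886 bases for *Ighm* and 532 for *Igkc*. They also leave out lambda chains, which had 160 counts in mouse 583 beside 132 of *Igkc*. The size of the ratio therefore does not give the balance of heavy and light chains. The ratio was highest in mouse 584 and lowest in mouse 583, both Tarsl2+/+. Of all counts on the 9 genes, *Ighm* made up 70.8% in mouse 583, 96.5% in mouse 584 and 90.4% in mouse 595, and between 89.8% and 94.5% in Tarsl2-/- mice. The other 8 members together had 34.9, 3.35 and 10.4 CPM in the Tarsl2+/+ mice and 5.74, 2.18 and 3.69 CPM in the Tarsl2-/- mice. Mouse 584 thus had a lower sum than mice 588 and 591, on 63 counts against 103 and 76. Of the counts in mouse 588, 30 were of *Pax5*. Not every member followed the sum. *Ighd* was higher in mouse 584 than in both, at 1.49 against 0.780 and 0.535 CPM. *Cd79b*, at 1.33 CPM in mouse 584, lay between their 1.62 and 0.778 CPM. The other members of the sum were lower in mouse 584 than in both. *Ighm* in mouse 584, at 91.6 CPM, was above all Tarsl2-/- mice.

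**Figure D3:**
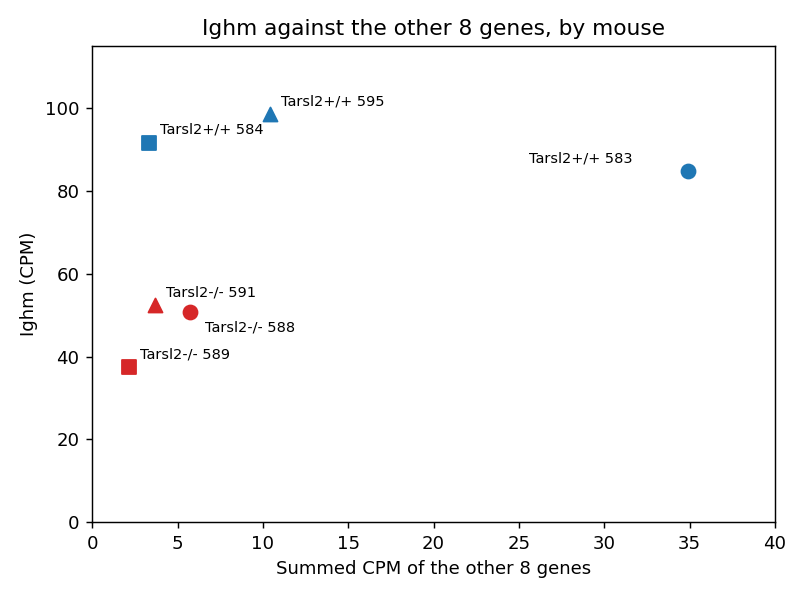
Level of *Ighm* against the summed level of the other 8 genes, both in CPM on linear axes from 0, with 1 labelled point per mouse. The 3 Tarsl2+/+ points lie at 84.8 to 98.5 CPM of *Ighm* while their sums of the other 8 genes run from 3.35 to 34.9 CPM.

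Variable segments are joined to the constant genes in the B lineage. Summed over 183 rows of heavy chain variable segments, of which few had any count, there were 31, 4 and 1 counts in Tarsl2+/+ mice 583, 584 and 595, and 3, 2 and 1 counts in Tarsl2-/- mice 588, 589 and 591. Per 1000 counts of *Ighm* this was 21.4, 2.32 and 0.533 against 3.30, 3.34 and 0.928. The largest share was in mouse 583, and mouse 595 had the most *Ighm* and 1 heavy variable count. Kappa variable segments had 104, 8 and 23 counts against 5, 2 and 10 counts over 160 rows.

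Constant genes of switched heavy chains were all but missing. *Ighg1*, *Ighg2b*, *Ighg2c*, *Ighg3*, *Igha* and *Ighe* together had 2, 0 and 0 counts in Tarsl2+/+ muscle, against 4, 2 and 1 counts in Tarsl2-/- muscle. *Ighg2c*, an IgG chain of C57BL/6 mice, reached 3 counts in mouse 588, the most of any of these rows, and *Igha* had the next highest mean. These values lie at or near the level of 3 counts in every library, so that no difference was detectable at this depth.

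A wider group of 69 B lineage genes in 7 lists was measured beside the members, of which 64 had any count and 36 enough for the test. Of the 36, 2 were called lower and 0 higher in Tarsl2-/- muscle, against 1.37% called lower over all tested genes. The median log2 fold change was -0.39, with 33 of 36 below 0, against a median of 0.00253 over all tested genes. Without mouse 583 the median was -0.30 and 0 of 36 were called by edgeR's quasi-likelihood test, against 0.324% called lower over all tested genes. The lists also hold genes that other cell types make. Of the 64 genes, 42 were highest in mouse 583. Among the 36 tested ones it was 19, against 15.1% of all tested genes. The called genes were *Ptpn6* and *Irf8*, both of which are also made by macrophages. *Ptpn6*, a phosphatase that dampens B cell receptor signals, had 238, 255 and 334 counts against 147, 130 and 208 counts, a difference on the log2 scale of -0.76 (standard error 0.14, adjusted p = 0.0204 by edgeR's quasi-likelihood test, and 0.0620 without mouse 583). *Irf8*, a factor of B cells and myeloid cells, had 200, 174 and 201 counts against 131, 94 and 148 counts, a log2 fold change of -0.62 (adjusted p = 0.0491 by edgeR, and 0.169 without mouse 583).

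By list, the 12 tested genes of B cell receptor signalling had -0.46 as their median log2 fold change, with 1 called lower. The 9 tested transcription regulators had a median of -0.30 with 1 called lower, the 8 tested surface genes -0.42 with 0 called, and the 7 tested plasma cell genes -0.36 with 0 called. The surface genes with the highest level were *Cd24a*, which many cell types make, at a log2 fold change of -0.15 (adjusted p = 0.432 by edgeR, and 0.402 without mouse 583), and *Ly86*, a partner of a Toll-like receptor homologue, at -0.70 (adjusted p = 0.0615, and 0.191 without mouse 583). The plasma cell genes with the highest level were *Xbp1*, a factor of the secretory pathway that other tissues also use, at 0.27 (adjusted p = 0.193 by edgeR, and 0.465 without mouse 583), and *Txndc5*, an endoplasmic reticulum oxidoreductase, at -0.02 (adjusted p = 0.946, and 0.960 without mouse 583). No gene of the precursor B cell list could be tested. In that list *Il7r*, a cytokine receptor chain that T cells also make, had 13, 6 and 3 counts against 1, 2 and 6, and *Vpreb1*, a chain of the precursor receptor, 5, 1 and 6 counts against 4, 1 and 5.

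*Cd22*, an inhibitory co-receptor found on B cells and named here after its values were seen, followed the pattern of *Cd79a* and not that of *Ighm*. *Cd22* had 31, 0 and 5 counts in Tarsl2+/+ mice 583, 584 and 595, and 3, 0 and 4 counts in Tarsl2-/- mice 588, 589 and 591. In mouse 584, *Cd22* and *Pax5* were both at 0 counts, which allows up to 3 counts, or 0.159 CPM, of each, beside 1725 counts of *Ighm*. *Cd22* does not stand for all surface genes of B cells. In mouse 584, *Ly86* had 284 counts and *Tnfrsf13b* 63, while *Tnfrsf13c* had 2.

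Neutrophil and T cell markers were also highest in mouse 583, as the 8 members were. Neutrophil markers summed to 69.2, 2.02 and 15.4 CPM in Tarsl2+/+ mice 583, 584 and 595 and to between 2.06 and 3.69 CPM in Tarsl2-/- mice, with 8 of 8 genes highest in mouse 583. T cell markers summed to 51.0, 14.9 and 14.7 CPM against 7.73 to 11.2 CPM, with 12 of 13 genes highest in that mouse. Of these lists, 0 of 3 and 0 of 5 tested genes were called. Natural killer cell markers summed to 1.33 to 3.51 against 0.194 to 0.446 CPM. These 5 genes had 60, 25 and 41 counts together against 8, 4 and 4, and 0 of them could be tested. *Glycam1*, a gene of lymph node vessels, had 26, 0 and 1 counts in Tarsl2+/+ and 1, 0 and 0 counts in Tarsl2-/- mice. *Glycam1* does not stand for the lymph node stroma list, in which 4 of 6 rows with any count were highest in mouse 583. *Ccl21a*, its gene with the highest level, had 73, 47 and 80 counts against 87, 82 and 14 in its row with the most counts. The list as a whole overlapped between genotypes, at 3.19 to 8.36 against 1.17 to 6.55 CPM. Bone marrow precursor markers also overlapped, at 1.43 to 3.15 against 1.17 to 2.49 CPM, and 0 of them were highest in mouse 583. Dendritic cell markers lay at 8.56 to 12.6 against 7.30 to 7.86 CPM, with 0 of 4 tested genes called. The part of these cells in the levels of the 8 members was not tested.

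Calls in the direction of *Ighm* were found among macrophage markers and genes of all leukocytes, and most of them were lost without mouse 583. Over all tested genes, lower calls likewise fell from 207 (1.37%) to 50 (0.324%) without mouse 583, and to 56 without mouse 595. Macrophage markers summed to 1752, 1571 and 1783 CPM in Tarsl2+/+ mice 583, 584 and 595 and to 1011, 909.6 and 1161 CPM in Tarsl2-/- mice 588, 589 and 591, with 2 of 9 genes highest in mouse 583. Of the 9 genes, 6 were called lower, and 1 without mouse 583, which was *Lyz2*, a lysozyme gene of myeloid cells. The log2 fold changes of these 6 changed little. They ran from -0.89 (*Lyz2*) to -0.53 (*Csf1r*) with all 6 mice, and from -0.86 to -0.50 in the same genes without mouse 583. Genes of all leukocytes summed to 154 to 230.4 against 111 to 137 CPM, with 2 of 7 called lower and 0 without mouse 583. Erythrocyte markers summed to 4748 to 10392 against 4166 to 4536 CPM, with a median log2 fold change of -0.86 and 0 of 6 called, and they were highest in mouse 595 while mouse 584 lay close to the Tarsl2-/- mice. Of the skeletal muscle markers, 3 of 9 tested genes were called higher in Tarsl2-/- muscle, *Ckm*, *Des* and *Myh1*, and 0 without mouse 583. Their log2 fold changes were 0.49, 0.50 and 0.59 with all 6 mice, and 0.52, 0.46 and 0.51 without mouse 583. The part of these cells in the difference of *Ighm* was not tested.

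**Figure D4:**
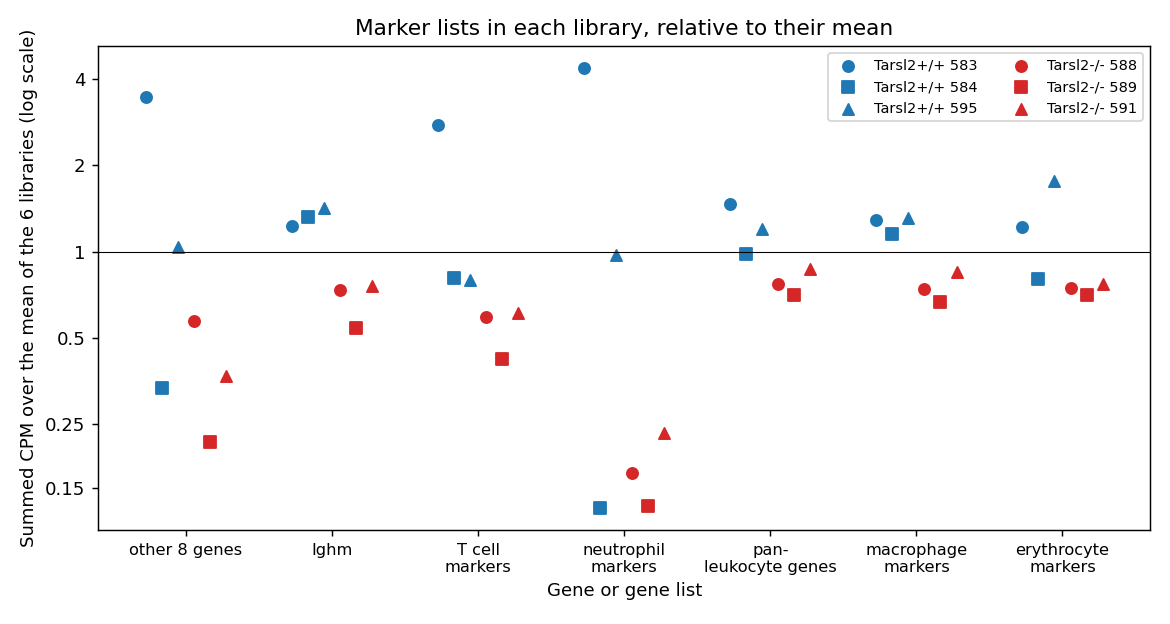
Summed CPM of the other 8 genes, of *Ighm* and of 5 marker lists in each library, divided by the mean over the 6 libraries, on a log scale with a line at 1. Mouse 583 (blue circle) stands far above the rest for the other 8 genes, T cell markers and neutrophil markers, and beside the other Tarsl2+/+ mice for *Ighm* and macrophage markers.

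Genes outside the lists were ranked by how closely their log2 CPM followed the mean of the 4 tested members over the 6 libraries, each member scaled to the same spread. Of 12383 genes, *Cd209b* was first, with a Pearson r of 0.990, followed by *Fbxo25*, *Il17ra*, *Susd1* and *Sphk1* at 0.984 to 0.989. With 6 libraries such values are common, and 262 genes had an r above 0.9, while all values share the scaling of each library and the split by genotype. *Cd209b*, a lectin known from macrophages of the spleen and lymph nodes, had 25.4, 5.63 and 13.1 CPM in Tarsl2+/+ mice 583, 584 and 595, and 2.90, 2.18 and 2.67 CPM in Tarsl2-/- mice 588, 589 and 591. It was lower in Tarsl2-/- muscle, with a log2 fold change of -2.49 (adjusted p = 0.0174 by edgeR's quasi-likelihood test), and of -1.85 without mouse 583 (adjusted p = 0.0384). The adjusted p of the other 4 lay between 0.122 and 0.453 by the same edgeR test.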

How the data were processed

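The RNA-seq libraries came from muscle of 3 Tarsl2+/+ and 3 Tarsl2-/- mice. The authors deposited raw counts of reads per gene, without normalization. The methods describe stranded mRNA libraries mapped with HISAT2 to mm10, whereas the submitters' processing notes name Bowtie 0.12.2 and mm8. Of the identifiers, 52403 were found in GENCODE vM21 on GRCm38, 95.2% with identical start and end, as for 9 of 9 members. The counting tool, annotation and strand setting are not given in the sources used here. Rows without a gene name numbered 448.

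Genes kept by filterByExpr (minimum count 10, minimum total count 15; 15075 genes) were scaled by TMM and tested in R 4.3.3 with edgeR 4.0.16 (glmQLFTest after glmQLFit, with genotype as factor). Benjamini-Hochberg adjusted p-values under 0.05 were called. Standard errors were the absolute log2 fold change over the square root of F. Single genes were also compared by the exact two-sided permutation test. The common biological coefficient of variation was 12.1%. Library totals lay between 16176591 and 20123767 counts. Intervals (exact Poisson for counts, Wilson for shares, 95%) and the level of 3 counts cover counting error only. The labels name separate mice but no batch.

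The members and lists were chosen with earlier results of these data known. Named were all members, from each B lineage list the genes past the threshold or otherwise the 2 with the highest mean CPM, and the 5 genes outside the lists whose log2 CPM (prior count 2, mean of at least 1) correlated best with the tested members. The fit was tested on simulated data. Alternatives were DESeq2 1.42.0, limma-voom (limma 3.58.1), other scalings and filters, and each library left out in turn. Values of 1 listed gene are not reported here.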

Additional observations from a re-analysis of the deposited data

How the results depend on the processing

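No paired analysis was possible because no mouse number occurs in both genotypes. *Ighm* was past the threshold in 7 of 7 other settings, with log2 fold changes of -0.99 to -0.97, and in all 6 fits without a library (-1.06 to -0.83, adjusted p 0.00582 to 0.0169 by edgeR). The number of members called lower in Tarsl2-/- muscle, 1 in the main setting, was 3 with DESeq2, 6 without a filter on low counts and from 1 to 6 when each library was left out, with 6 without Tarsl2+/+ mouse 584. *Ighd* was called with DESeq2 (-2.18, adjusted p = 0.00189), without the filter (-2.17, adjusted p = 2.08e-09) and without mouse 584 (-2.50, adjusted p = 0.0184). *Cd79b* was called with DESeq2 (-2.05, adjusted p = 0.00285), without the filter (-2.04, adjusted p = 1.20e-11) and without mouse 584 (-2.47, adjusted p = 0.00970). *Igkc* was called without the filter (-2.38, adjusted p = 3.17e-11) and without mouse 584 (-2.94, adjusted p = 0.0365). The same held for *Cd79a* (adjusted p = 3.01e-08 and 0.0161), while *Ms4a1* was called without the filter (4.87e-07) and *Jchain* without mouse 584 (0.0380). With at least 10 counts required in every library, *Igkc* could not be tested. Leaving out each library gave from -2.50 to -1.33 for *Ighd*, -3.43 to -0.76 for *Igkc* and -2.51 to -1.37 for *Cd79b*. Without the filter, edgeR estimated the spread by a trend alone. Of the wider B lineage genes, 2 were called lower in the main setting, 5 with DESeq2, 1 with limma-voom and 18 without the filter, and from 0 to 3 when each library was left out, with 3 without mouse 584 and 0 without Tarsl2+/+ mice 583 or 595 or Tarsl2-/- mice 588 or 589. Over all tested genes, 207 lower and 135 higher calls became 371 and 300 with DESeq2, 826 and 611 without the filter, and 50 to 383 and 31 to 242 when each library was left out. Kept in the edgeR test regardless of their counts, a choice made after seeing the data, *Cd79a* had -2.88 (adjusted p = 0.146), *Ms4a1* -2.57 (0.247), *Jchain* -1.51 (0.273), *Vpreb3* -0.49 (0.843) and *Pax5* -0.42 (0.886). The cause of these changes was not tested. Members other than *Ighm* had from 0 to 132 counts per library, which limits what can be detected.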

Other observations

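Lambda light chains, which few mouse antibodies carry, were counted about as often as kappa in the library with the most light chain counts, that of Tarsl2+/+ mouse 583. The lambda constant genes *Iglc1*, *Iglc2*, *Iglc3* and *Iglc4* together had 160, 2 and 30 counts in Tarsl2+/+ mice 583, 584 and 595. They had 14, 2 and 9 counts in Tarsl2-/- mice 588, 589 and 591. *Iglc2* and *Iglc3* are near-identical copies whose single counts are uncertain. *Iglc2* had 93, 1 and 12 counts against 7, 1 and 7, and *Iglc3* had 43, 0 and 8 counts against 3, 0 and 1. In mouse 583 the lambda genes held 54.8% of 292 light chain constant counts (Wilson 95% interval 49.1% to 60.4%), or 54.7% per length of gene. By variable segments the share in the same mouse was 20.6% of 131 counts (interval 14.6% to 28.3%), below that by constant genes. The cause of this gap was not tested.

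Receptors for survival factors of B and plasma cells, chosen after their values were seen, differed in pattern. *Tnfrsf13c*, which encodes the BAFF receptor, had 26, 2 and 4 counts in Tarsl2+/+ and 3, 5 and 2 counts in Tarsl2-/- muscle, with the most in mouse 583. *Tnfrsf17*, which encodes BCMA of plasma cells, had 41, 48 and 45 counts in Tarsl2+/+ mice 583, 584 and 595 and 26, 21 and 24 counts in Tarsl2-/- mice 588, 589 and 591. Its genotypes did not overlap, and its log2 fold change was -0.90 (standard error 0.24, adjusted p = 0.0746 by edgeR's quasi-likelihood test, and 0.180 without mouse 583). *Tnfrsf13b*, which encodes TACI, had 78, 63 and 88 counts against 56, 53 and 61, with a log2 fold change of -0.42 (adjusted p = 0.267 by edgeR, and 0.512 without mouse 583). *Ebf1*, a factor of B cells that stromal and fat precursor cells also make, had 423, 512 and 508 counts against 421, 412 and 508, with a log2 fold change of -0.09 (adjusted p = 0.625 by edgeR). Among Tarsl2+/+ mice both *Tnfrsf17* and *Ebf1* varied little, with means of 2.44 ± 0.0999 and 26.2 ± 1.30 CPM (SD, n = 3). Mouse 584, with 0 counts of *Cd22* and *Pax5*, was thus at about the level of the other Tarsl2+/+ mice in both.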
